A study of Homo sapiens with 32 samples.

Results

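The genes described are 9 transcriptional brakes and readouts of the ERK pathway, chosen by name: the MAP kinase phosphatases DUSP1, DUSP4, DUSP5 and DUSP6, the Sprouty proteins SPRY2 and SPRY4, the Sprouty-related proteins SPRED1 and SPRED2, and the transcription factor EGR1. All 9 were among the 17788 genes of the count table, and all 9 passed the filter on low counts that left 14865 genes for testing. They were followed in MCF10A cells, an immortalised, non-tumorigenic human mammary epithelial line, in 32 RNA sequencing libraries.

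ERK is the last kinase of the RAS, RAF, MEK cascade, which growth factors such as EGF switch on. Active ERK induces the genes of its own inhibitors within the same cell. DUSP phosphatases remove the activating phosphates from ERK and related kinases, and Sprouty and Spred proteins act higher up, between the receptor, RAS and RAF. EGR1 is an immediate early gene, a transcription factor that ERK induces through factors bound to its promoter, and its RNA and those of DUSP6 and SPRY genes are widely used to read ERK output. TGFβ1 signals through SMAD proteins and drives epithelial to mesenchymal transition in these cells, while the AP-1 subunit JUNB is a target of both pathways.

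The libraries came from 4 single-cell clones derived after CRISPR/Cas9 editing of JUNB. Clones 27 and 2 are labelled JUNB WT, and clones 1 and 65 are labelled as JUNB knock-out and called mut here. The deletion in the mut clones leaves a shorter JUNB polypeptide, expressed at a low level and inducible by TGFβ1. Cells of each clone received solvent or 5 ng/ml of TGFβ1 for 6, 24 or 72 h, in 2 replications per clone, so that each of the 8 groups held 4 libraries and each genotype only 2 clones. The solvent libraries are labelled as time 0, while the study's methods describe solvent treatment over 72 h and harvest of all cells on the same day. Every culture grew with 20 ng/ml of EGF, horse serum, insulin, hydrocortisone and cholera toxin, so the levels below are those of cells under steady EGF. A series below means the 4 libraries of 1 clone and 1 replication, for example series 27-1.

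The libraries held 39702412 to 54651906 counts, and a count of 3 corresponded to 0.0549 to 0.0756 CPM (counts scaled to a common library total). The 7 markers of basal mammary epithelium were all measured and summed to 6934 to 14953 CPM, higher in mut than in WT with solvent (10935 to 12768 against 7955 to 10057). Singly, 2 of the 7 were called higher in mut with solvent and 1, ITGA6, lower (log2 difference -0.42 ± 0.10). Of the leukocyte markers, PTPRC and CD3E stayed below 3 counts and CD68 carried the sum, 8.93 to 14.3 CPM in WT and 5.93 to 7.48 CPM in mut with solvent. The fibroblast markers DCN and PDGFRA, 2 of 3 listed, summed to 5.58 to 16.3 CPM in WT and 25.9 to 33.9 CPM in mut at 72 h. They went opposite ways there, with DCN higher in mut (log2 difference 1.63 ± 0.28) and PDGFRA lower (-1.39 ± 0.34). The part of any of these markers in the differences between genotypes was not tested. The endothelial marker VWF, 1 of 3 listed, lay between 0 and 0.140 CPM, and mitochondrial transcripts took 1.51 to 2.41% of the counts. SMAD7, TGFBI and SKIL, known targets of TGFβ1, all rose in WT at 6, 24 and 72 h and in mut at 24 and 72 h, and TGFBI alone was not called in mut at 6 h. JUNB RNA was 89.7 to 117 CPM in WT and 69.2 to 172 CPM in mut with solvent and was not called between genotypes in any state. Gene counts do not show the deletion and do not check the labels, and JUNB exons overlap those of HOOK2 in libraries without strand. Within mut, JUNB RNA at 6 h was 202 and 129 CPM in clone 1 against 436 and 494 CPM in clone 65.

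The promoters shown are those of the 4 members whose RNA was higher in mut than in WT, and they were picked by that result. Each is a RefSeq window on GRCh38.p14 of 300 bases, 250 before and 50 after the annotated start, read along the gene's strand. EGR1 lies in chr5:138465229-138465528, plus strand, DUSP1 in chr5:172771146-172771445, minus strand, SPRY2 in chr13:80341077-80341376, minus strand and DUSP6 in chr12:89352452-89352751, minus strand. Capitals mark matches to the motifs named after the sequences.
EGR1: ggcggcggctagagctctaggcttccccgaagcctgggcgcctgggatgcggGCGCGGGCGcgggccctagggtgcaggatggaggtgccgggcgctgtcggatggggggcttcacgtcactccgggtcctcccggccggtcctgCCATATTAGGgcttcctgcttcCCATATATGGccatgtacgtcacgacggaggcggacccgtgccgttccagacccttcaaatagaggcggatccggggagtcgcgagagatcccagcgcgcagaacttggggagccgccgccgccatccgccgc
DUSP1: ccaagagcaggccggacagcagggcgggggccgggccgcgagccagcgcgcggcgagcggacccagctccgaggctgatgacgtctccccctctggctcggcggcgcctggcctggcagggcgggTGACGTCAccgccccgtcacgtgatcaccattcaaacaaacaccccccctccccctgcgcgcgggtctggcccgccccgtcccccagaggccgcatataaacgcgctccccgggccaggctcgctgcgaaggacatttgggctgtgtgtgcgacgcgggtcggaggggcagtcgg
SPRY2: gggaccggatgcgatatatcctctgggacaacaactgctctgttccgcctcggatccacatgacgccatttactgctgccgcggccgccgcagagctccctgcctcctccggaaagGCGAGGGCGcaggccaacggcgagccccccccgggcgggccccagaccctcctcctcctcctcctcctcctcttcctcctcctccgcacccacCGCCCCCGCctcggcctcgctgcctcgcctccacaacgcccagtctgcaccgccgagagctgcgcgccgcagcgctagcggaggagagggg
DUSP6: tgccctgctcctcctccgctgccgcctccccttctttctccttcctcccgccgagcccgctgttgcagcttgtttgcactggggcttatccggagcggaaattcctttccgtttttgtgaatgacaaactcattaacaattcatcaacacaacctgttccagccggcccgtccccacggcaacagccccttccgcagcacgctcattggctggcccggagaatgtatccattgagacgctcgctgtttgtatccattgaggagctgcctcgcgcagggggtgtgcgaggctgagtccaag

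Windows were searched on both strands for the CArG box (the site of serum response factor), the CRE TGACGTCA (bound by CREB and ATF proteins), the AP-1 site TGANTCA, the EGR site GCGNGGGCG and the ETS site CCGGAAG. Positions count from +1 at the start, with -1 as the base before it. The EGR1 window held 2 CArG boxes, CCATATTAGG at -105 to -96 and CCATATATGG at -83 to -74, and 1 EGR site at -198 to -190. The DUSP1 window held 1 CRE at -125 to -118, and this SPRY2 window, 1 of 3 that RefSeq gives and the one with the most upstream start, held 2 EGR sites at -134 to -126 and -41 to -33. The other 2 SPRY2 windows, not shown, and the DUSP6 window held none of the 5 motifs. Among the 35116 windows of all genes, 1.29% held a CArG box, 1.85% a CRE, 7.71% an AP-1 site, 9.43% an EGR site and 10.3% an ETS site. RefSeq windows were matched for 7 of the 9 members, not for DUSP4 and DUSP5. Among the members not shown, a SPRED2 window held 2 AP-1 sites, at -6 to 1 and 35 to 41. The SPRY4 window held 1 EGR site at -195 to -187, and the SPRED1 window held none of the motifs. A match is a match of letters and was not tied to binding or to the RNA values below.

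Levels of different genes are compared per kilobase of exon. DUSP1 had the highest level of the 9 in every group, 243 ± 12.5 CPM per kb (mean ± SD, n = 4) in WT with solvent. DUSP6 and EGR1 followed with 72.6 ± 4.07 and 67.0 ± 10.1 CPM per kb, then DUSP4 with 32.1 ± 3.74 and SPRY4 with 21.5 ± 1.69. The other 4 members lay close to each other, from 11.0 ± 0.408 for SPRED1 to 13.2 ± 0.579 for SPRED2. In mut with solvent EGR1 reached 124 ± 26.3 CPM per kb and DUSP6 106 ± 14.4, while DUSP4 was 21.7 ± 1.90. Across the 8 groups, the highest group mean was 3.47 times the lowest for SPRY2, 3.27 times for EGR1 and 2.51 times for DUSP4, and 1.97 times for DUSP6 and 1.93 times for DUSP5. It was 1.38 times for both SPRY4 and DUSP1, 1.23 times for SPRED2 and 1.22 times for SPRED1. Fewer cells of a state and less RNA per cell cannot be told apart in bulk libraries.

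**Figure D1:**
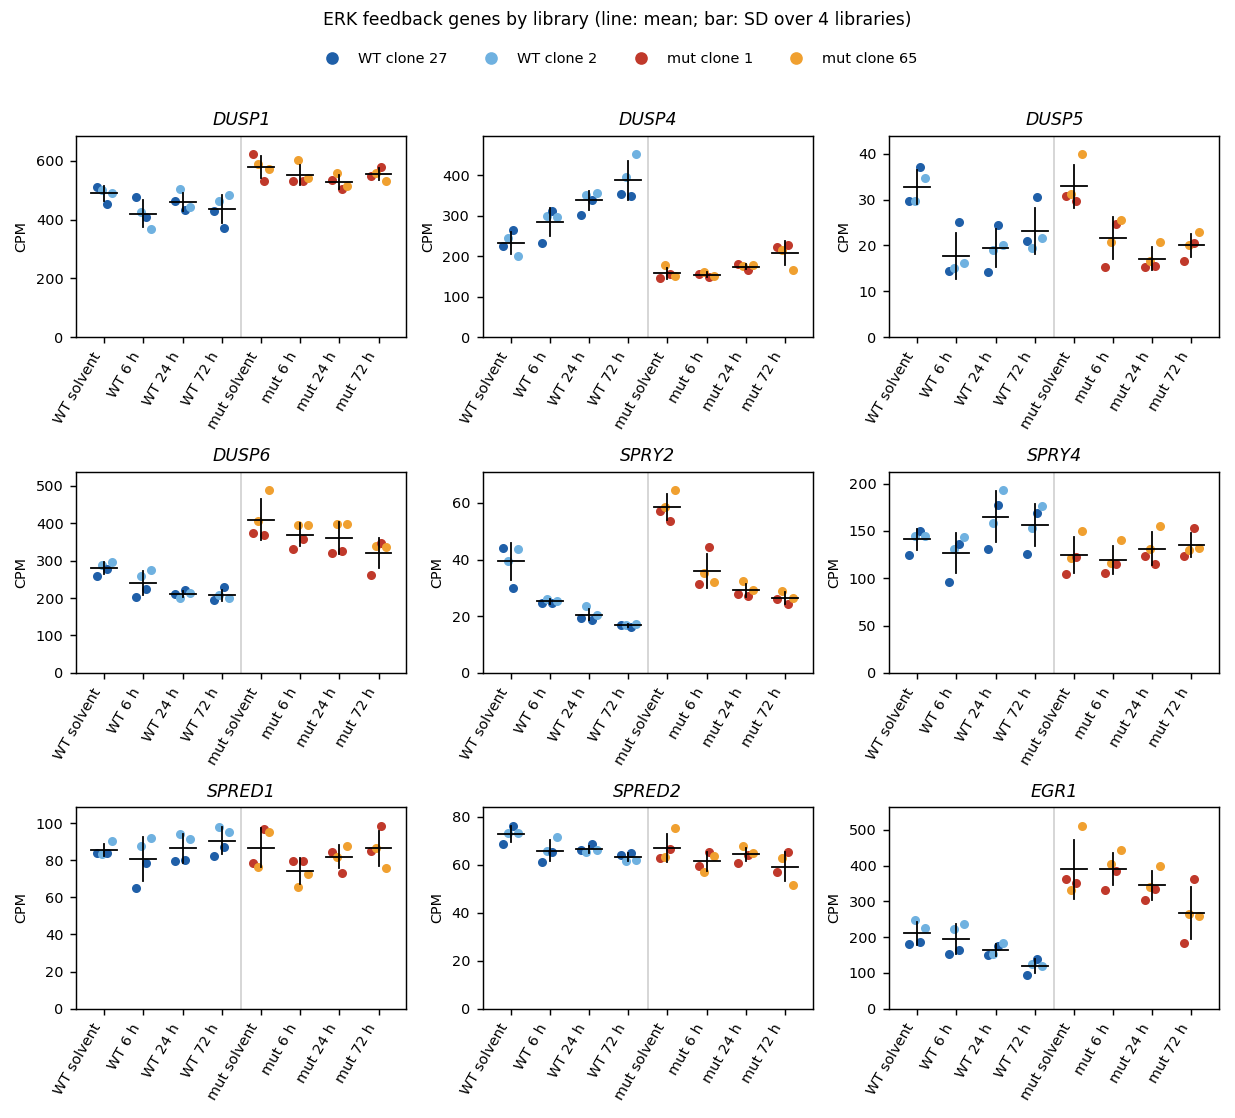
CPM of each member (vertical axis) in the 32 libraries by group (horizontal axis), with points coloured by clone, lines at group means and bars of 1 SD over 4 libraries. SPRY2 falls from left to right within each genotype, DUSP4 climbs in WT, and EGR1 and DUSP6 lie higher in mut than in WT.

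SPRY2 and DUSP5 fell with TGFβ1 in both genotypes at every time. DUSP4 rose in WT at every time and in mut at 72 h, DUSP6 fell in WT from 24 h and in mut at 72 h, and EGR1 fell in both at 72 h. In the limma-voom test with Benjamini-Hochberg adjustment over the 14865 genes, 4 of 9 members were called in WT at 6 h (17.0% of all genes were), 4 at 24 h (52.1%) and 6 at 72 h (52.2%). In mut the counts were 2 at 6 h (7.00% of all genes), 2 at 24 h (23.8%) and 6 at 72 h (24.1%). In WT at 24 and 72 h the member counts lay on either side of the share of all genes. DUSP4 was the only member that rose in any of these 6 comparisons. The median log2 change of the members was -0.17, -0.13 and -0.20 in WT at 6, 24 and 72 h, beside -0.078, -0.18 and -0.19 over all genes, and -0.12, -0.13 and -0.18 in mut, beside -0.060, -0.098 and -0.087. With TMM factors, which centre the bulk of genes, the median of the members was 0.049 and -0.041 in WT at 24 and 72 h, and calls that end under TMM are given beside their values. By library size 1 member rose and 3 fell in WT at 6 and at 24 h and 1 rose and 5 fell at 72 h, against 1 and 2, 2 and 2 and 2 and 3 with TMM factors. In mut at 72 h 1 rose and 5 fell, against 1 and 3 with TMM factors. Of all genes, TMM factors called 13.2%, 46.7% and 44.7% in WT at 6, 24 and 72 h and 20.6% in mut at 72 h.

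**Figure D2:**
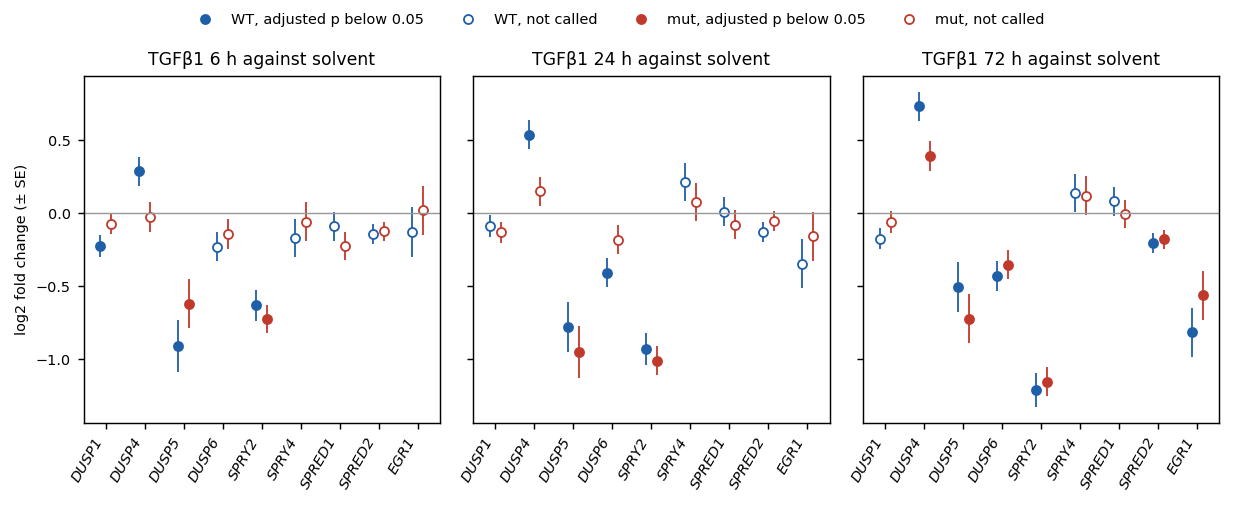
Log2 fold change (vertical axis, with SE) of the 9 members (horizontal axis) after 6, 24 and 72 h of TGFβ1 against solvent, WT in blue and mut in red, filled where the adjusted p was below 0.05. SPRY2 and DUSP5 lie below 0 in all 3 panels for both genotypes, and DUSP4 lies above 0 in WT throughout.

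SPRY2, an inhibitor of receptor signalling to RAS and RAF (ENSG00000136158, GRCh38 chr13:80335976-80341126, minus strand), showed the deepest fall. With solvent, WT libraries had 44.2 and 29.8 CPM in clone 27 and 39.6 and 43.6 CPM in clone 2. At 72 h they had 17.0 and 16.2 CPM in clone 27 and 16.9 and 17.4 CPM in clone 2. Every treated WT library lay below every solvent library at 6, 24 and 72 h, and the 4 libraries at 72 h lay close together. The changes were -0.63 ± 0.11 (adjusted p = 0.000125), -0.93 ± 0.11 (adjusted p = 5.49e-08) and -1.21 ± 0.11 (adjusted p = 1.69e-09) on the log2 scale at 6, 24 and 72 h, the last a level 0.432 times that of solvent. In mut, solvent libraries had 57.1 and 53.7 CPM in clone 1 and 58.6 and 64.5 CPM in clone 65. At 72 h mut libraries had 25.9 and 24.2 CPM in clone 1 and 29.1 and 26.4 CPM in clone 65. Here too no treated library reached a solvent library at any time, with changes of -0.72 ± 0.096 (adjusted p = 3.62e-05), -1.01 ± 0.10 (adjusted p = 5.57e-08) and -1.15 ± 0.10 (adjusted p = 2.80e-09). SPRY2 was lower than solvent in each of the 8 series at each time, with log2 changes at 72 h of -1.36 to -0.86 in WT and -1.27 to -1.0 in mut.

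DUSP5, a nuclear phosphatase specific for ERK (ENSG00000138166, GRCh38 chr10:110497907-110511533, plus strand), fell at all 3 times in both genotypes. WT solvent libraries had 29.7 and 37.1 CPM in clone 27 and 29.6 and 34.7 CPM in clone 2. At 6 h they had 14.5 and 25.1 CPM in clone 27 and 15.1 and 16.1 CPM in clone 2, with the highest value in series 27-2 still below the lowest solvent library. The WT changes were -0.91 ± 0.18 (adjusted p = 0.000591), -0.78 ± 0.17 (adjusted p = 0.000386) and -0.50 ± 0.17 (adjusted p = 0.0132). By 72 h library 27-2 overlapped the solvent range at 30.6 CPM, and TMM factors ended that call (-0.34, adjusted p = 0.107). In mut, solvent libraries had 30.8 and 29.7 CPM in clone 1 and 31.2 and 39.9 CPM in clone 65, and libraries at 24 h had 15.3 and 15.5 CPM in clone 1 and 16.7 and 20.7 CPM in clone 65. All treated mut libraries lay below all mut solvent libraries at each time, with changes of -0.62 ± 0.17 (adjusted p = 0.0236), -0.95 ± 0.18 (adjusted p = 0.000295) and -0.72 ± 0.17 (adjusted p = 0.00211). Without mut solvent library 65-2 or mut 6 h library 1-1 or 65-1, the DUSP5 call in mut at 6 h was lost (adjusted p = 0.0878 to 0.0936), as it was with TMM factors (-0.56, adjusted p = 0.0513). DUSP5 was lower than solvent in all 8 series at all 3 times, and the WT difference between 24 and 6 h was not called (0.13 ± 0.19, adjusted p = 0.667).

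DUSP4, a nuclear phosphatase of ERK, JNK and p38 (ENSG00000120875, GRCh38 chr8:29333064-29350684, minus strand), moved the other way and climbed with time in WT. WT solvent libraries had 225 and 264 CPM in clone 27 and 245 and 200.2 CPM in clone 2. At 24 h they had 303 and 339 CPM in clone 27 and 352 and 357 CPM in clone 2, and at 72 h 353 and 349 CPM in clone 27 and 395 and 452 CPM in clone 2. Treated and solvent libraries overlapped at 6 h and were apart at 24 and 72 h. The WT changes were 0.29 ± 0.099 (adjusted p = 0.0439), 0.54 ± 0.099 (adjusted p = 4.11e-05) and 0.73 ± 0.099 (adjusted p = 6.08e-07), positive in each of the 4 series at each time. Without WT solvent library 27-1, 2-1 or 2-2 or WT 6 h library 2-1, 27-2 or 2-2, the DUSP4 call in WT at 6 h was lost (adjusted p = 0.0524 to 0.182). In mut, solvent libraries had 146 and 156 CPM in clone 1 and 177 and 152 CPM in clone 65, and libraries at 72 h had 224 and 227 CPM in clone 1 and 215 and 166 CPM in clone 65. The mut values at 6 and 24 h stayed within 149 to 161 and 165 to 180.3 CPM and were not called (adjusted p = 0.919 and 0.294), and the rise at 72 h was 0.39 ± 0.100 (adjusted p = 0.00447), positive in 4 of 4 series, with library 65-2 inside the solvent range.

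DUSP6, a cytoplasmic phosphatase specific for ERK and a common readout of ERK activity (ENSG00000139318, GRCh38 chr12:89347235-89352501, minus strand), fell by less. WT solvent libraries had 259 and 277 CPM in clone 27 and 289 and 295 CPM in clone 2. At 72 h they had 196 and 229 CPM in clone 27 and 208 and 200.2 CPM in clone 2, all below the solvent libraries. The change was -0.41 ± 0.10 (adjusted p = 0.00118) at 24 h and -0.43 ± 0.10 (adjusted p = 0.000726) at 72 h, and the call at 24 h was lost with TMM factors (-0.23, adjusted p = 0.0637). At 6 h the adjusted p was 0.120, or 0.0177 with series as a block. In mut, libraries at 72 h had 261 and 347 CPM in clone 1 and 339 and 338 CPM in clone 65 against 373 and 369.9 CPM in clone 1 and 407 and 489 CPM in clone 65 with solvent. The libraries of the mut groups did not overlap, and the fall was -0.35 ± 0.10 (adjusted p = 0.0109). Without mut solvent library 65-2 or mut 72 h library 1-1, the DUSP6 call in mut at 72 h was lost (adjusted p = 0.0677 to 0.0694), and with TMM factors the adjusted p was 0.0539. At 24 h in mut the adjusted p was 0.197, or 0.0458 with series as a block. DUSP6 was lower than solvent in each of the 8 series at each time.

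EGR1 (ENSG00000120738, GRCh38 chr5:138465479-138469303, plus strand) was called at 72 h in both genotypes. WT solvent libraries had 181 and 186 CPM in clone 27 and 247 and 227 CPM in clone 2. At 72 h they had 93.4 and 139 CPM in clone 27 and 126 and 119.8 CPM in clone 2. The 6 h libraries spanned 152 to 236 CPM and overlapped solvent, whereas all 72 h libraries lay below all others of WT. The fall at 72 h was -0.82 ± 0.17 (adjusted p = 0.000213), and at 24 h the adjusted p was 0.0869, or 0.0181 with series as a block. In mut, solvent libraries had 362 and 351 CPM in clone 1 and 333 and 512 CPM in clone 65. At 72 h they had 183 and 363 CPM in clone 1 and 263 and 259 CPM in clone 65, from clearly below solvent in library 1-1 to within the solvent range in library 1-2. The fall was -0.56 ± 0.17 (adjusted p = 0.0145), seen in 3 of 4 series. Without mut solvent library 65-2 or mut 72 h library 1-1, the EGR1 call in mut at 72 h was lost (adjusted p = 0.0834 to 0.0866).

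The remaining 4 members had smaller changes. DUSP1, the broad nuclear phosphatase of p38, JNK and ERK (ENSG00000120129, GRCh38 chr5:172768096-172771195, minus strand), had 512 and 454 CPM in clone 27 and 502 and 492 CPM in clone 2 with solvent and 478 and 408 CPM in clone 27 and 428 and 367 CPM in clone 2 at 6 h in WT. These ranges overlapped, the change was -0.23 ± 0.075 (adjusted p = 0.0350), and it was lost with TMM factors (-0.15, adjusted p = 0.199). Without WT solvent library 27-1, 2-1 or 2-2 or WT 6 h library 2-1, 27-2 or 2-2, the DUSP1 call in WT at 6 h was lost (adjusted p = 0.0516 to 0.172). At 72 h in WT the adjusted p was 0.0523, or 0.0195 with series as a block, and in mut no time was called. SPRED2, which holds back RAF activation (ENSG00000198369, GRCh38 chr2:65310851-65432637, minus strand), was called at 72 h in both genotypes with small changes of -0.20 ± 0.066 (adjusted p = 0.0113) in WT and -0.18 ± 0.066 (adjusted p = 0.0485) in mut. With TMM factors both were lost (-0.041, adjusted p = 0.654 and -0.10, adjusted p = 0.321). Without mut solvent library 1-2 or 65-2 or mut 72 h library 1-1 or 65-2, the SPRED2 call in mut at 72 h was lost (adjusted p = 0.0766 to 0.224).

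SPRY4, another Sprouty inhibitor (ENSG00000187678, GRCh38 chr5:142310427-142326455, minus strand), and SPRED1 (ENSG00000166068, GRCh38 chr15:38252836-38357249, plus strand) were not called against solvent in the 6 comparisons. SPRY4 lay at 125 to 150.0 CPM in WT with solvent and 131 to 193 CPM at 24 h, with an adjusted p of 0.179, or 0.0100 with series as a block. With TMM factors the SPRY4 change at 24 h was 0.39, adjusted p = 0.0202. The antisense gene SPRY4-AS1 overlaps SPRY4 without sharing exons, in libraries that do not record strand. SPRED1 had 65.4 to 92.1 CPM in WT at 6 h and 82.3 to 97.8 CPM at 72 h, each group overlapping solvent. Its 13 differences against solvent, between genotypes and between the responses lay between -0.22 and 0.082 on the log2 scale, with SE of at most 0.14, and with TMM factors its change in WT at 72 h was 0.24, adjusted p = 0.0422.

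Between successive times, 2 of 9 members were called in WT from 6 to 24 h (28.2% of all genes were) and 0 from 24 to 72 h (7.83%). In mut, 0 were called from 6 to 24 h (3.12%) and 0 from 24 to 72 h (1.31%). At an unadjusted p below 0.05, limma-voom gave 2 members in WT from 24 to 72 h (21.9% of all genes), 1 in mut from 6 to 24 h (18.3%) and 2 in mut from 24 to 72 h (16.2%). In the same order edgeR called 0, 0 and 0 members (8.66%, 2.23% and 1.32% of all genes) and DESeq2 called 2, 0 and 0 (10.8%, 4.76% and 2.80%). With TMM factors 3 rose and 0 fell in WT from 6 to 24 h (25.1% of all genes were called), since SPRY2 was lost and DUSP1 (0.24, adjusted p = 0.0172) and DUSP4 (0.36, adjusted p = 0.0134) were gained beside SPRY4. SPRY2 went on falling in WT from 6 to 24 h (-0.30 ± 0.11, adjusted p = 0.0487), with 24.5 to 26.2 CPM at 6 h and 18.8 to 23.5 CPM at 24 h and no overlap. Without WT 6 h library 27-1, 2-1, 27-2 or 2-2 or WT 24 h library 27-1, 27-2 or 2-2, the SPRY2 call from 6 to 24 h was lost (adjusted p = 0.0642 to 0.136), as it was with TMM factors (-0.20, adjusted p = 0.185). SPRY4 rose over the same interval (0.38 ± 0.13, adjusted p = 0.0288) from 95.5 and 136 CPM in clone 27 and 131 and 143 CPM in clone 2 to 131 and 178 CPM in clone 27 and 158 and 193 CPM in clone 2. The 2 groups overlapped, although SPRY4 rose within every series. Without WT 6 h library 27-1 or WT 24 h library 27-2 or 2-2, the SPRY4 call from 6 to 24 h was lost (adjusted p = 0.0831 to 0.166). With series as a block, DUSP4 from 6 to 24 h in WT (adjusted p = 0.0213), EGR1 from 24 to 72 h in WT (0.00980) and in mut (0.0347) and DUSP5 from 6 to 24 h in mut (0.0306) were also called. EGR1 in WT had 149 to 182 CPM at 24 h and 93.4 to 139 CPM at 72 h, without overlap.

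Between genotypes the same 5 members differed in every state. EGR1, DUSP6, SPRY2 and DUSP1 were higher and DUSP4 was lower in mut, with all 4 mut libraries beyond all 4 WT libraries in solvent and at 6, 24 and 72 h. What share of all genes was likewise apart was not counted, so this separation is not shown to be particular to the members. The 5 of 9 members called compare with 12.7% of all genes with solvent and with 21.4%, 36.9% and 39.2% after the 3 TGFβ1 times. The members were chosen with earlier results of these data known, so setting their counts beside such shares is no test of enrichment. With TMM factors 3 and 2 members were higher and lower in mut at 24 h (33.2% of all genes were called) and 4 and 2 at 72 h (36.5%), beside 4 and 1 by library size. The median over all 9 members was 0.016, 0.30, -0.049 and -0.070 on the log2 scale, beside -0.0075, 0.016, 0.093 and 0.095 over all genes. Each genotype is represented by 2 clones, so a difference between these clones and one between genotypes cannot be told apart, and the test counts 4 libraries per group.

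**Figure D3:**
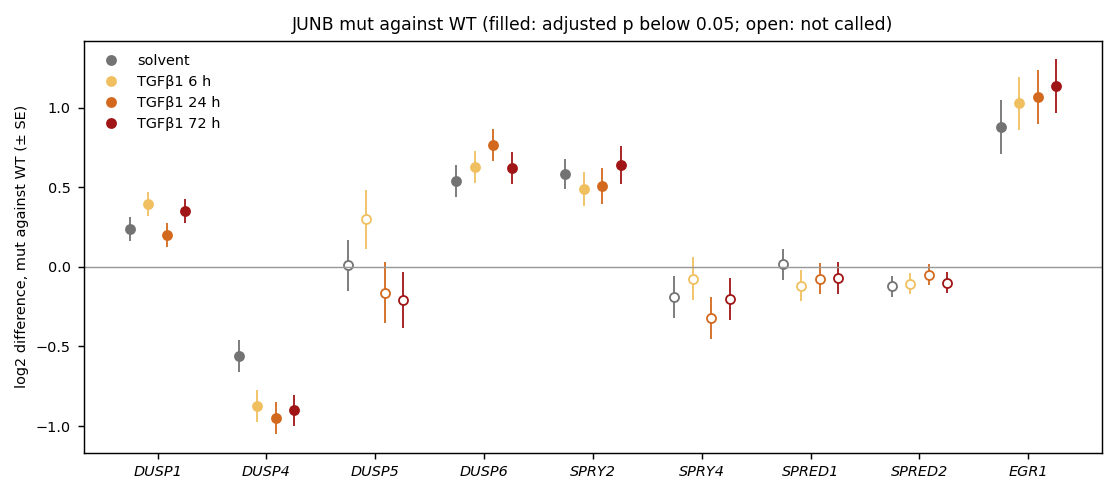
Log2 difference of mut against WT (vertical axis, with SE) for the 9 members (horizontal axis) with solvent and after 6, 24 and 72 h of TGFβ1, filled where the adjusted p was below 0.05. EGR1, DUSP6, SPRY2 and DUSP1 lie above 0 and DUSP4 below 0 in all 4 states, and the other 4 members are open.

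EGR1 differed most. With solvent, mut libraries had 333 to 512 CPM and WT libraries 181 to 247 CPM. The log2 differences were 0.88 ± 0.17 (adjusted p = 0.000550), 1.03 ± 0.17 (adjusted p = 4.60e-05), 1.07 ± 0.17 (adjusted p = 1.64e-05) and 1.13 ± 0.17 (adjusted p = 6.06e-06) in solvent and at 6, 24 and 72 h, or 1.84 to 2.19 times the WT level. In order of group means, WT at 72 h was lowest, then WT at 24 h, 6 h and solvent, then mut at 72 h, 24 h, solvent and 6 h. Only WT at 72 h was apart from its neighbour in that order, and mut at 72 h, 183 to 363 CPM, overlapped WT with solvent. Both mut clones took part, with solvent means of 356 CPM in clone 1 and 422 CPM in clone 65 against 184 CPM in clone 27 and 237 CPM in clone 2.

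DUSP6 followed the same order of genotypes. With solvent, its level was 409.6 ± 55.5 CPM in mut and 280.1 ± 15.7 CPM in WT (mean ± SD, n = 4). The log2 differences were 0.54 ± 0.10 (adjusted p = 0.000415), 0.63 ± 0.10 (adjusted p = 3.44e-05), 0.77 ± 0.10 (adjusted p = 1.14e-06) and 0.62 ± 0.10 (adjusted p = 1.81e-05). All mut groups had higher means than all WT groups, and each group overlapped its neighbours in that order, including mut at 72 h (261 to 347 CPM) and WT with solvent (259 to 295 CPM). Clone 65 had the higher DUSP6 mean of the mut clones in each state, 448 against 371 CPM with solvent.

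SPRY2 was higher in mut by 0.58 ± 0.096 (adjusted p = 9.47e-05), 0.49 ± 0.11 (adjusted p = 0.00122), 0.51 ± 0.11 (adjusted p = 0.000883) and 0.64 ± 0.12 (adjusted p = 8.32e-05) on the log2 scale. The mut group at 72 h (24.2 to 29.1 CPM) ended near WT at 6 h (24.5 to 26.2 CPM), and mut with solvent stood apart above all other groups. DUSP1 was higher by 0.24 ± 0.075 (adjusted p = 0.0318), 0.40 ± 0.075 (adjusted p = 0.000288), 0.20 ± 0.075 (adjusted p = 0.0378) and 0.35 ± 0.075 (adjusted p = 0.000433). Its groups came close at 24 h, where WT libraries reached 503.85 CPM and mut libraries began at 503.98 CPM. With clone as a random block the DUSP1 calls with solvent and at 24 h were lost (adjusted p = 0.0576 and 0.0605), and with TMM factors that at 24 h (0.11, adjusted p = 0.262). Without WT solvent library 27-2 or 2-2 or mut solvent library 1-1, 65-1 or 65-2, the DUSP1 call between genotypes with solvent was lost (adjusted p = 0.0526 to 0.116). Without WT 24 h library 27-1, 27-2 or 2-2 or mut 24 h library 1-1 or 65-1, the DUSP1 call between genotypes at 24 h was lost (adjusted p = 0.0580 to 0.110).

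DUSP4 was the only called member that was lower in mut, with log2 differences of -0.56 ± 0.100 (adjusted p = 0.000238), -0.87 ± 0.099 (adjusted p = 2.22e-07), -0.95 ± 0.099 (adjusted p = 2.81e-08) and -0.90 ± 0.099 (adjusted p = 5.60e-08). At 72 h mut libraries had 166 to 227 CPM and WT libraries 349 to 452 CPM, 0.535 times the WT level. Every mut group had a lower mean than every WT group, and mut at 72 h overlapped WT with solvent. The calls for EGR1, DUSP6, SPRY2 and DUSP4 between genotypes held in all 4 states with clone as a random block. DUSP5, SPRY4, SPRED1 and SPRED2 were not called between genotypes. SPRY4 at 24 h had 115 to 156 CPM in mut and 131 to 193 CPM in WT (adjusted p = 0.0537, with TMM factors 0.0214). SPRED2 at 72 h was called with TMM factors (-0.18, adjusted p = 0.0392), as it was by edgeR and DESeq2.

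Whether the response to TGFβ1 differed between genotypes was tested as the change in mut minus the change in WT. By limma-voom 0 of 9 members were called at 6 h (0.0740% of all genes were), 0 at 24 h (9.65%) and 0 at 72 h (12.3%). At an unadjusted p below 0.05 there was 1 member at each time, DUSP4 (5.14%, 23.6% and 26.6% of all genes). At the 3 times edgeR called 0, 0 and 0 (0.114%, 6.27% and 9.11% of all genes), and DESeq2 called 0, 1 and 1, again DUSP4 (0.309%, 8.52% and 11.1%). The DUSP4 change in mut minus that in WT was -0.39 ± 0.14 (adjusted p = 0.0776) at 24 h and -0.34 ± 0.14 (adjusted p = 0.113) at 72 h. With series as a block, which compares each treated library with the solvent library of its own clone and replication, the adjusted p was 0.0262 at 24 h and 0.0451 at 72 h, where 18.7% and 23.5% of all genes were called, so that 1 of 9 members lay below the share of all genes in this fit. In single series the DUSP4 change at 24 h was 0.36 to 0.83 in WT and -0.015 to 0.31 in mut, without overlap. The series overlapped at 6 h (0.055 to 0.57 in WT and -0.14 to 0.10 in mut) and at 72 h (0.40 to 1.17 and 0.12 to 0.62). What share of all genes was likewise apart at 24 h was not counted. For SPRY2 the difference of the responses at 72 h was 0.057 ± 0.15 (SE) and for EGR1 0.25 ± 0.24 (SE).

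EGR1 and DUSP6 were high and low in the same libraries. Over the 32 libraries the Pearson correlation of their log2(CPM + 0.5) was 0.954, and it was 0.842 in the 16 WT and 0.859 in the 16 mut libraries. Of 9645 genes with a mean of at least 10 CPM, DUSP6 was the gene most like EGR1, and EGR1 the gene most like DUSP6. After subtracting each group's mean, which leaves only the spread among the 4 libraries of a group, their correlation was 0.845. DUSP4 ran against both over the 32 libraries (r = -0.883 with EGR1 and -0.892 with DUSP6), and within groups these correlations were 0.0876 and 0.0327. SPRY4 showed the reverse pattern, -0.303 with EGR1 over all libraries and 0.731 within groups, and -0.315 and 0.671 with DUSP6. Libraries of a clone and series share their source and each library's values share 1 total, so these are descriptions.

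**Figure D4:**
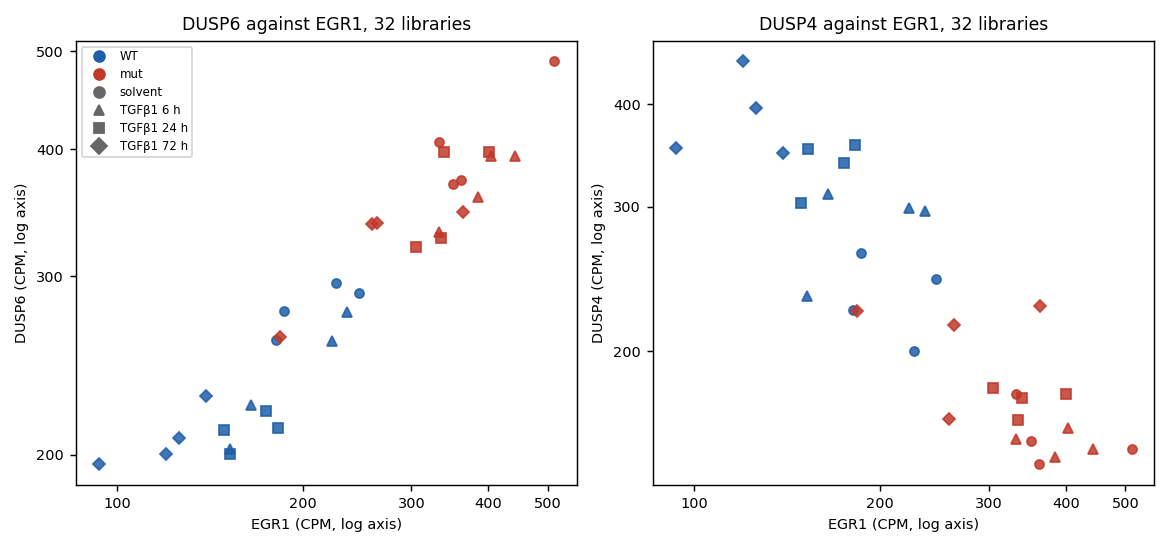
CPM of DUSP6 (left) and DUSP4 (right) against CPM of EGR1 in the 32 libraries, on log axes, with WT in blue, mut in red and the shape giving the treatment. DUSP6 rises with EGR1 along 1 band shared by both genotypes (r = 0.954), while DUSP4 is highest where EGR1 is lowest (r = -0.883).

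The balance of the 2 abundant ERK phosphatases with opposite changes, cytoplasmic DUSP6 and nuclear DUSP4, was followed as a ratio within each library, in which the scaling of libraries cancels. The ratio of DUSP6 to DUSP4 per kb was 1.98 to 2.78 in WT with solvent, and 1.36 to 1.75, 1.07 to 1.32 and 0.835 to 1.23 after 6, 24 and 72 h of TGFβ1. In mut it was 4.32 to 6.06 with solvent, and 4.0 to 4.88, 3.35 to 4.27 and 2.20 to 3.84 after the same times. Mut libraries had the higher ratio in every state without overlap, while WT at 72 h had about as much DUSP4 as DUSP6 per kb. The pair was chosen after their values were seen, and no test was made of the ratio.

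Likeness to the other members was measured in the same way over the 32 libraries. DUSP4 was most like DCBLD2 (r = 0.976), PTHLH (r = 0.962) and LRRC8C (r = 0.959). The genes most like SPRY2 were SYBU (r = 0.951), ARL2BP (r = 0.948) and TGFBR3 (r = 0.944), the last a TGFβ co-receptor. DUSP1 was most like PLAT (r = 0.883), MAMLD1 (r = 0.864) and IGSF9 (r = 0.836), the first being tissue plasminogen activator. For DUSP5, SPRY4 and SPRED2 the highest correlations were lower, 0.838 with CBX2, 0.809 with SOCS2 and 0.755 with LATS1. SPRED1 was most like ZNF148 (r = 0.920), SGPP1 (r = 0.879) and SOCS4 (r = 0.854). SOCS2 and SOCS4 belong to a family of cytokine signalling inhibitors.

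The other genes of the pathway were read from lists chosen by name. Of all genes, 52.2% were called in WT and 24.1% in mut at 72 h. Between genotypes 12.7% were called with solvent and 39.2% at 72 h, and in the difference of the responses at 72 h 12.3%. In the same order these shares were 44.7%, 20.6%, 12.8%, 36.5% and 8.68% with TMM factors. The list counts below are to be read beside these shares. Of 6 further MAP kinase phosphatases, 3 rose and 2 fell in WT at 72 h and 2 rose and 3 fell in mut (median log2 change -0.053 and -0.61), or 3 and 1 in WT and 2 and 2 in mut with TMM factors. DUSP10, a phosphatase of p38 and JNK, rose at 6 h in WT (1.35 ± 0.16, adjusted p = 1.17e-06) and in mut (1.01 ± 0.14, adjusted p = 7.27e-05). At 72 h its rise was 0.83 ± 0.17 (adjusted p = 0.000137) in WT and 1.21 ± 0.14 (adjusted p = 3.94e-07) in mut. DUSP10 was higher in mut with solvent (0.86 ± 0.16, adjusted p = 0.000560) and at 72 h (1.25 ± 0.14, adjusted p = 1.07e-07). DUSP9, an ERK phosphatase, fell in WT (-1.24 ± 0.28, adjusted p = 0.000507) and in mut (-1.36 ± 0.21, adjusted p = 1.39e-05) at 72 h and was higher in mut with solvent (0.95 ± 0.20, adjusted p = 0.00139), at low levels of 1.45 to 1.76 CPM in WT and 2.61 to 4.15 CPM in mut. DUSP8, a phosphatase of JNK and p38, rose in WT at 72 h (1.13 ± 0.43, adjusted p = 0.0294) and was lower in mut at 72 h (-1.72 ± 0.47, adjusted p = 0.00418), and it was the only one of the 6 called in the difference of the responses at 72 h (-2.04 ± 0.66, adjusted p = 0.0424), at only 0.769 to 2.46 CPM in WT and 0.227 to 0.661 CPM in mut. DUSP16, which also acts on JNK and p38, fell in mut at 72 h (-0.67 ± 0.13, adjusted p = 0.000209) and was lower in mut than in WT at 72 h (-0.59 ± 0.13, adjusted p = 0.000523). DUSP2 fell at 24 h in WT (-1.15 ± 0.20, adjusted p = 2.41e-05) and mut (-0.72 ± 0.18, adjusted p = 0.00574). At 72 h its falls (-0.52 ± 0.18, adjusted p = 0.0194 in WT and -0.55 ± 0.18, adjusted p = 0.0209 in mut) were lost with TMM factors (adjusted p = 0.125 and 0.0556). DUSP7 was lower in mut with solvent (-0.33 ± 0.055, adjusted p = 0.000118). Between genotypes, 2 of the 6 were higher and 1 lower in mut with solvent, and 2 higher and 3 lower at 72 h (median 0.19 and -0.084).

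SPRY1, a relative of SPRY2, fell in WT, where it had 5.74 to 10.6 CPM with solvent and 0.800 to 1.34 CPM at 72 h (-2.97 ± 0.31, adjusted p = 1.02e-08). In mut it had 10.2 to 13.7 CPM with solvent and 4.57 to 8.38 CPM at 72 h (-0.94 ± 0.17, adjusted p = 0.000146), and the difference of the responses was called (2.04 ± 0.36, adjusted p = 0.000533). SPRED3 rose in both genotypes at 72 h (1.04 ± 0.17, adjusted p = 1.15e-05 in WT and 1.08 ± 0.22 (adjusted p = 0.000667) in mut) and was lower in mut with solvent (-1.08 ± 0.23, adjusted p = 0.00147). SPRY3 was called in none of these comparisons. Of the 3 further Sprouty and Spred genes, 1 rose and 1 fell in WT at 72 h, the same numbers as in mut (median -0.17 and -0.31).

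Of 6 brakes of EGFR and RAS, 2 rose and 2 fell in WT at 72 h, and 0 rose and 2 fell in mut (median 0.015 and -0.15), or 3 and 2 and 0 and 1 with TMM factors. ERRFI1, the EGFR inhibitor MIG6, fell in WT, where it had 125 to 166 CPM with solvent and 73.4 to 86.9 CPM at 72 h (-0.91 ± 0.13, adjusted p = 9.04e-07). It also fell in mut at 72 h (-0.39 ± 0.12, adjusted p = 0.0183), a call lost with TMM factors (-0.32, adjusted p = 0.0572). ERRFI1 was higher in mut in solvent (0.90 ± 0.12, adjusted p = 7.01e-06) and at 72 h (1.42 ± 0.13, adjusted p = 1.59e-09). LRIG1, which promotes loss of EGFR, fell in both genotypes (-1.08 ± 0.13, adjusted p = 1.15e-07 in WT and -0.77 ± 0.12 (adjusted p = 1.39e-05) in mut) and was higher in mut (0.49 ± 0.11, adjusted p = 0.00395 with solvent). RASA1, a RAS GTPase activating protein, rose in WT (0.64 ± 0.12, adjusted p = 4.99e-05). At 72 h RASA1 (-0.56 ± 0.12, adjusted p = 0.000385) and RASAL2 (-0.46 ± 0.15, adjusted p = 0.0181) were lower in mut than in WT. Between genotypes, 2 of the 6 brakes were higher and 0 lower in mut with solvent, and 2 higher and 3 lower at 72 h (median -0.022 and -0.19). The EGR1 corepressor NAB2 fell at 72 h in WT (-0.59 ± 0.10, adjusted p = 2.36e-05) and mut (-0.31 ± 0.098, adjusted p = 0.0224), the latter lost with TMM factors (-0.23, adjusted p = 0.111), and NAB1 was not called, so that 0 of 2 corepressors rose and 1 fell in each genotype.

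**Figure D5:**
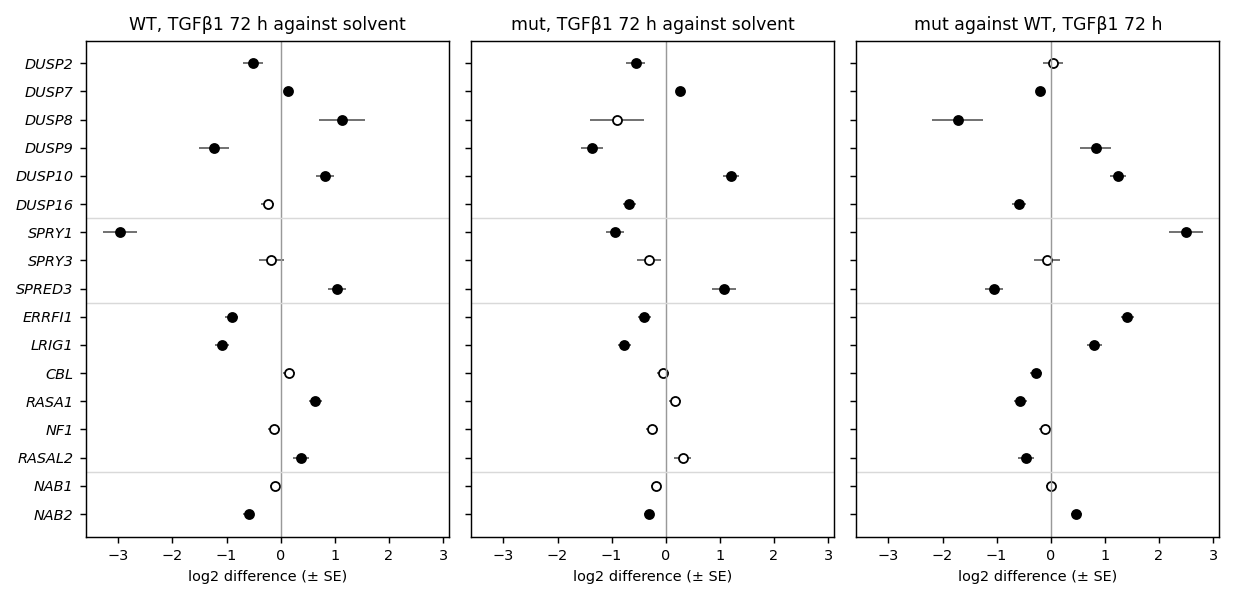
Log2 differences (horizontal axis, with SE) of 17 further pathway brakes (vertical axis) in WT and mut after 72 h of TGFβ1 and between genotypes at 72 h, filled where the adjusted p was below 0.05. From top to bottom the blocks are MAP kinase phosphatases, Sprouty and Spred genes, EGFR and RAS brakes and EGR1 corepressors. SPRY1 has the lowest value in WT and the highest in mut against WT.

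Of 17 further ERK-responsive genes, 4 rose and 5 fell in WT at 72 h and 2 rose and 5 fell in mut (median -0.021 and 0.034). The 9 of 17 called in WT lay near the share of all genes (52.2%), and the 7 of 17 called in mut compare with 24.1%. With TMM factors 6 rose and 5 fell in WT and 5 rose and 3 fell in mut, so the balance in both turned toward rises. The immediate early genes FOS (-0.97 ± 0.18, adjusted p = 4.16e-05) and EGR3 (-1.21 ± 0.28, adjusted p = 0.000627) and the growth regulator MYC (-1.01 ± 0.082, adjusted p = 1.26e-10) fell in WT, while the ephrin receptor EPHA4 rose (0.88 ± 0.22, adjusted p = 0.00153). In mut EGR3 also fell (-1.77 ± 0.21, adjusted p = 5.52e-07), as did FOS (-0.49 ± 0.15, adjusted p = 0.0202), the latter lost with TMM factors (-0.41, adjusted p = 0.0507). MYC fell by less in mut than in WT (-0.34 ± 0.082, adjusted p = 0.00283), and for MYC the difference of the responses was called (0.67 ± 0.12, adjusted p = 0.000517). Between genotypes with solvent, 3 were higher and 2 lower in mut (median -0.025). The EGR1 relatives EGR2 (1.61 ± 0.35, adjusted p = 0.00203) and EGR3 (1.25 ± 0.20, adjusted p = 5.90e-05) were among the former, EGR2 at only 0.360 to 0.655 CPM in WT, and ZFP36, which speeds decay of immediate early RNAs, was the third (0.39 ± 0.086, adjusted p = 0.00249). The cell cycle gene CCND1 was lower (-0.39 ± 0.092, adjusted p = 0.00464). At 72 h 6 were higher and 3 lower in mut, or 5 and 7 with TMM factors.

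Of 16 genes of the cascade itself, its kinases, adaptors and scaffolds, 2 rose and 3 fell in WT at 72 h and 1 rose and 2 fell in mut (median -0.067 and -0.048), or 5 and 1 in WT and 1 and 1 in mut with TMM factors. The scaffold KSR1 fell in WT (-1.10 ± 0.24, adjusted p = 0.000285) and mut (-1.19 ± 0.21, adjusted p = 9.40e-05), and the RAS activator SOS2 rose in WT (0.52 ± 0.093, adjusted p = 3.24e-05). Between genotypes with solvent 1 was higher and 2 were lower in mut (median -0.049), the called differences being at most 0.26 on the log2 scale, for the adaptor SHC1.

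Calls at the earlier times were as follows. Of all genes, 17.0% were called in WT at 6 h and 52.1% at 24 h, and 7.00% and 23.8% in mut. In the same order these shares were 13.2%, 46.7%, 4.86% and 17.3% with TMM factors. Among the 6 further phosphatases, in WT 2 rose and 1 fell at 6 h and 3 and 2 did at 24 h, and in mut 2 and 0 did at 6 h and 2 and 2 at 24 h. Among the 6 EGFR and RAS brakes, in WT 1 rose and 1 fell at 6 h and 1 and 2 did at 24 h, and in mut 0 and 1 did at 6 h and 2 and 1 at 24 h. Among the 17 ERK-responsive genes the calls at 6 h included MYC, which fell in WT (-0.69 ± 0.082, adjusted p = 9.66e-07). In WT 1 rose and 4 fell at 6 h and 3 and 5 did at 24 h, and in mut 0 and 1 did at 6 h and 0 and 2 at 24 h among these 17. With TMM factors the ERK-responsive counts were 2 and 1 at 6 h and 5 and 3 at 24 h in WT, a balance turned toward rises, and 1 and 2 at 24 h in mut. For the EGFR and RAS brakes in WT at 24 h they were 3 and 1, turned likewise. In the difference of the responses 3 of the 17 were called at 24 h (9.65% of all genes were) and 2 at 72 h (12.3%). These counts were 2 (5.79%) and 3 (8.68%) with TMM factors. The 2 called at 72 h by library size were MYC, given above, and IER3, an ERK target and survival factor, which was lower (-0.44 ± 0.12, adjusted p = 0.0124). These comparisons share their solvent libraries, so the counts at the 3 times are not independent.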

How the data were processed

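Libraries were made by the submitters from total RNA with a kit (TruSeq RNA v2) that does not record strand, reads were trimmed with Trimmomatic and aligned and counted per Ensembl gene of GRCh38 with STAR, per the study's methods, and the versions are not given in the sources used here. The authors deposited raw read counts per gene for 32 libraries in 1 table, and no per-sample column was left out. Of its 17788 genes, 17763 were named through GENCODE release 44, whose exon unions (GRCh38) gave lengths and positions.

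Counts of 39702412 to 54651906 per library were tested with limma-voom on the study's model (limma 3.58.1, edgeR 4.0.16 in R 4.3.3), library-size scaling, 1 mean per group of 4 libraries over all 8 groups, a filter the study's methods do not state (filterByExpr, minimum count 10, minimum total 15), 2-sided tests and Benjamini-Hochberg adjustment over 14865 genes at 0.05, with no minimum fold. The study calls its replicates biological, while the labels give a replication number with no account of what separates them, and p-values measure the spread between these libraries. Libraries of a group differed beyond sampling noise (smallest chi-square per degree of freedom 12.7). Lists describe counts of genes and medians, and 153 member values were computed in 17 comparisons. Levels are CPM of the library total, and correlations used log2(CPM + 0.5). Members, lists and named genes (up to 4 called genes of a list with the largest change, and 3 most alike genes per member) were chosen with earlier results of these data known. Scripts were tested on simulated data.

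The labels give each library a clone and a replication number, and each clone was seeded in a plate per treatment. Deviations from group means correlated within a series (mean r 0.478 over 48 pairs, -0.11 to 0.832), more than between replications of a clone (0.0048) or between clones (-0.23). Deviations from a mean of 4 libraries sum to 0, which lowers these values, so they do not show that the replications of a clone are independent. Series was used as a block, in alternatives that also held TMM factors, edgeR, DESeq2 1.42.0, no low-count filter, summed replications, clone as a random block (correlation 0.105) and fits without a library or series. TMM factors with series as a block were added after the data were seen.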

Additional observations from a re-analysis of the deposited data

Results flagged for a closer look

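In 6 of the 72 sets formed by 1 member and the 4 libraries of 1 group, the highest or lowest library stood apart from the other 3 by Dixon's ratio at the 95% level, where chance gives about 1 in 20 sets, or 3.6 of 72. DUSP1 in mut at 6 h was 602 CPM in library 65-1 against 531 to 541 CPM in the others. DUSP4 in WT at 6 h was 233 CPM in library 27-1 against 297 to 311 CPM, and DUSP4 in mut at 72 h was 166 CPM in library 65-2 against 215 to 227 CPM. DUSP5 in mut with solvent was 39.9 CPM in library 65-2 against 29.7 to 31.2 CPM, and DUSP6 in mut at 72 h was 261 CPM in library 1-1 against 338 to 347 CPM. SPRED1 in WT with solvent was 90.3 CPM in library 2-2 against 83.7 to 84.3 CPM. The solvent library 65-2 and the 72 h library 1-1 are also those whose removal ended the calls of DUSP6 and EGR1 in mut at 72 h. What set these libraries apart was not tested.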

How the results depend on the processing

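Between genotypes the number of members called stayed between 4 and 6 in all 4 states in every fit. Apart from the fits without a single library, 7.92% to 14.6% of all genes were called with solvent. At 6, 24 and 72 h these fits called 13.3% to 23.3%, 26.6% to 38.6% and 30.1% to 41%. Among the TGFβ1 responses the counts moved with the fit. In WT at 6 h summed replications left 2 members instead of 4 (9.29% of all genes were called), and leaving out single libraries gave 2 to 4. In mut at 6 h TMM factors, edgeR and summed replications each left 1 instead of 2 (4.86%, 4.13% and 1.25% of all genes), and leaving out libraries gave 1 to 2. In mut at 72 h edgeR left 3 instead of 6 (19.8% of all genes), and leaving out libraries gave 3 to 6. From 6 to 24 h in WT, no low-count filter left 1 of 2 (22.7%), summed replications and the fit without series 27-2 left 0 (18.5% and 23.1%), and TMM factors with series as a replicate block gave 4 (35.7%), while leaving out libraries gave 0 to 2.

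The block by series ended no member's call and its added calls stand beside the results. Where no member was called, from 24 to 72 h in WT DESeq2 and the pairing by series with TMM factors gave 2 (10.8% and 18.0% of all genes), the series block 1 (17.4%) and the block by replication number 1 (9.65%). From 6 to 24 h and from 24 to 72 h in mut the series block gave 1 with or without TMM factors (9.39% to 11.6% of all genes), and leaving out libraries gave 0 to 1 in the latter. For the difference of the responses at 24 h and at 72 h, DESeq2 and the series block, with or without TMM factors, gave 1 at each time, where 8.52% to 23.5% of all genes were called. The fit without series 27-2 gave 1 at 72 h (13%), and leaving out libraries gave 0 to 1 at 24 h. The DUSP1 change in WT at 72 h turned to 0.011 with DESeq2, and the SPRED1 change in WT at 24 h ranged from -0.032 to 0.051 when libraries were left out. Leaving aside the fits without a single library, 86 of 153 member values were called in no fit, and 22 of these changed sign in an alternative. With 2 clones per genotype the clones themselves limit what the genotype comparison covers.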
